A study of Homo sapiens with 3 samples.

Results

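The long noncoding RNA genes of the array were examined in BEAS-2B, a line of immortalised human bronchial epithelial cells, after treatment with MTX and with the vehicle DMSO. MTX is named here as the labels write it. Genes were taken by symbol: names starting with LINC and a number, names ending in -AS or -IT with a number, SNHG genes, MIR genes ending in HG, and GAS5, NEAT1, MALAT1, MEG3 and H19. Those with a probe measured on at least 2 arrays numbered 254 of 11741 genes fitted. By symbol they fell into 130 antisense genes, 91 intergenic genes, 25 host genes, 4 intronic genes and the other 4 named RNAs. The host genes were 14 snoRNA hosts (SNHG genes and GAS5) and 11 miRNA hosts, also by symbol. In the annotation 12 of the 25 hold a snoRNA gene, MIR99AHG among them, while SNHG10, SNHG20 and SNHG21 hold none. The symbols of 249 members were found in the RefSeq gene table, which types 248 of them as lncRNA.

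The cells received 0.144 µM MTX, a dose labelled with an inhibition of 20%, for 48 h after 24 h of incubation. On each of 3 two-colour arrays the RNA of MTX cells carried Cy5 and the RNA of DMSO cells Cy3. The arrays therefore form 1 group of 3 ratios of MTX over DMSO with no dye exchange, and a dye effect specific to a probe is part of every value. No label says whether the arrays came from separate cultures, so p-values measure no more than the spread among the 3 arrays, and that spread may be technical. Values are normalised log ratios of unstated base. Folds were therefore computed for base 10 and for base 2. Positive values were taken to mean more RNA in MTX cells, a likely direction that follows from the labelled dyes and the usual order of Cy5 over Cy3 and was not settled from scanner values. Among 11 measured direct targets of p53, a transcription factor activated by DNA damage, 6 were higher and 1, BAX, lower at the threshold used below. A ratio of bulk RNA cannot tell fewer cells from less RNA per cell. It gives no level either, so the labelled cell type could not be checked against its markers. Of 10 markers measured, EPCAM, an epithelial adhesion protein, was the single one past the threshold, with a mean of 0.278 ± 0.0982 (SD, n = 3). KRT18, a keratin, passed as well, with a mean of -0.132, once the local median over the array surface was removed.

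Long noncoding RNAs are transcripts made largely like messenger RNAs but without a long coding frame. Antisense genes are transcribed from the strand opposite a protein-coding gene, often starting beside its promoter, and some affect the expression of that partner. Intergenic genes lie between coding genes, although some genes with LINC symbols overlap one. Host genes carry snoRNAs or miRNAs, most of them inside introns. A snoRNA guides the chemical modification of ribosomal RNA, while the spliced remainder of many snoRNA host transcripts is translated briefly and destroyed by nonsense-mediated decay. Such hosts often begin with a pyrimidine tract, as the mRNAs of ribosomal proteins do. NEAT1 is the scaffold of paraspeckles, MALAT1 lies in nuclear speckles, and MEG3 and H19 are imprinted.

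With MTX, 33 of the 254 long noncoding genes passed an adjusted p under 0.05 (limma, Benjamini-Hochberg over all genes). This was 13.0% of them, against 13.9% of all genes fitted, so their share of changes was close to the background. The direction was split differently: 11 were higher and 22 lower among long noncoding genes, while 8.16% of all genes were higher and 5.75% lower. As shares of the 254, these were 4.33% higher and 8.66% lower. Adjusted p-values of the 33 lay between 0.0254 and 0.0498, and 26 of the genes had values on 3 arrays and 7 on 2. The median mean log ratio was -0.00407 over the 254 genes and 0.00601 over all genes. The median absolute value was 0.0698 for long noncoding genes and 0.0650 for all genes. Over genes with values on 3 arrays, the median SD was 0.0536 for long noncoding genes and 0.0442 for all genes. Just outside the threshold lay LINC02907 with an adjusted p of 0.0515 and RASSF8-AS1 with 0.0516, and just inside it GDF5-AS1 with 0.0498.

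These calls depended on the arrays entered. Leaving out array 1 or array 2 left 0 long noncoding genes past the threshold, with 53 and 40 at an unadjusted p under 0.05. Leaving out array 3 gave 96 of 189, in a fit that called 45.9% of all genes. Array 3 stood apart from the others for long noncoding and other genes alike: across the 159 long noncoding genes on 3 arrays, the correlation was 0.822 between arrays 1 and 2, 0.459 between 1 and 3, and 0.521 between 2 and 3. Over 9329 other genes these were 0.815, 0.504 and 0.567. These correlations are across genes, which are not independent replicates. Neighbouring spots also shared part of their value, with correlations of 0.211, 0.256 and 0.169 between adjacent spots on arrays 1, 2 and 3. With the local median over the array surface removed, 32 long noncoding genes were called, against 16.3% of all genes, and 23 of them were among the 33. In the fit of probes measured on all 3 arrays, 41 of 159 long noncoding genes were called, 16 higher and 25 lower, against 29.0% of all genes.

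snoRNA host genes moved in both directions. SNHG5, host of SNORD50A and SNORD50B, was higher with MTX, while SNHG16, host of SNORD1A, SNORD1B and SNORD1C, and SNHG19, host of SNORD60, were lower. Host transcripts often begin with a pyrimidine tract, although that of SNHG16 does not at its annotated start. The first 50 transcribed bases of these 3 genes and the 60 bases before them are shown for that reason. They come from the RefSeq promoter table (GRCh38.p14), each on the strand of its gene: SNHG5 at chr6:85678684-85678793 (minus strand), SNHG16 at chr17:76557704-76557813 (plus strand) and SNHG19 at chr16:2155309-2155418 (minus strand). Capitals mark the motif CTTTT.
SNHG5: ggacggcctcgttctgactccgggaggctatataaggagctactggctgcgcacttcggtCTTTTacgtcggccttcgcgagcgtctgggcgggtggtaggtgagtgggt
SNHG16: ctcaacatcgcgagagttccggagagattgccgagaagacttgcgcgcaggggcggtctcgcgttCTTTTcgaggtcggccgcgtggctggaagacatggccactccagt
SNHG19: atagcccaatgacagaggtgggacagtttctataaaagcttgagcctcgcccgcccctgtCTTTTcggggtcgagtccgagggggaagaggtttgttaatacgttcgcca

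The motif began at transcript base 1 in SNHG5 and SNHG19 and at base 6 in SNHG16. CTTTT began within the first 10 transcribed bases in 4 of the 12 snoRNA hosts with a promoter entry (33.3%), SNHG32 being the other, against 1.58% of all 27305 promoters of the table. Its reverse complement AAAAG was found there in 0 of the 12 hosts and in 1.05% of all promoters. The 3 printed genes, which all carry CTTTT, are among these 4 hosts, so the share in hosts is no separate result. Over the 189 long noncoding genes with an entry, CTTTT and AAAAG were each found in 5 (2.65%). A cytosine start followed by pyrimidines, 5 or more in all, was present in SNHG5, SNHG12, SNHG19 and SNHG32, against 4.04% of all promoters. Thus the motif was shared by genes that moved in opposite directions, and SNHG32 averaged -0.0155 ± 0.0444 (SD, n = 3) with an adjusted p of 0.710.

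SNHG5 had log ratios of 0.156, 0.104 and 0.100 on arrays 1, 2 and 3. All 3 were above 0. Its mean was 0.120 ± 0.0313 (SD, n = 3; adjusted p = 0.0476, limma), which is 1.32-fold on base 10 and 1.09-fold on base 2. With the local median of the surface removed the mean was 0.0480 and the adjusted p 0.271.

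SNHG19 had values of -0.156, -0.120 and -0.0973, lower with MTX on every array. Its mean was -0.124 ± 0.0294 (SD, n = 3; adjusted p = 0.0448, limma), or 1.33-fold lower on base 10 and 1.09-fold on base 2. SNHG16 had -0.102, -0.0972 and -0.119, the closest set of 3 among the called host genes. Its mean was -0.106 ± 0.0118 (SD, n = 3; adjusted p = 0.0479, limma).

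GAS5, named for its rise in growth-arrested cells and host of 11 snoRNA genes in the annotation, had -0.230, -0.274 and -0.0716. Arrays 1 and 2 were low and array 3 lay nearer 0. Its mean of -0.192 ± 0.106 (SD, n = 3) was the lowest of the 14 snoRNA hosts, but its adjusted p was 0.0617 in limma. It passed with an adjusted p of 0.0365 among probes measured on all 3 arrays and of 0.0252 with the local median removed. Its antisense gene GAS5-AS1 had 0.132, 0.114 and -0.0468, with an adjusted p of 0.328.

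The other snoRNA hosts were not called. SNHG10 averaged -0.106 ± 0.0424 (SD, n = 3), with an adjusted p of 0.0677, and of 0.0386 among probes measured on all 3 arrays. SNHG6 had -0.240, -0.110 and -0.0447, a wide spread with all 3 arrays below 0. SNHG21 averaged -0.103 ± 0.0600 (SD, n = 3). On the other side, SNHG12 had 0.0549, 0.114 and 0.0807, and SNHG7 had 0.0862 and 0.203 on the 2 arrays that measured it. SNHG8, also measured on 2 arrays, had 0.123 and 0.0340. SNHG1, SNHG15, SNHG20 and SNHG32 had means between -0.0155 and 0.0247, and SNHG20 had -0.0528 with the local median removed. The 14 snoRNA hosts split evenly, 7 above and 7 below 0, and 9 of the 12 measured on 3 arrays kept their sign on all 3.

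**Figure D1:**
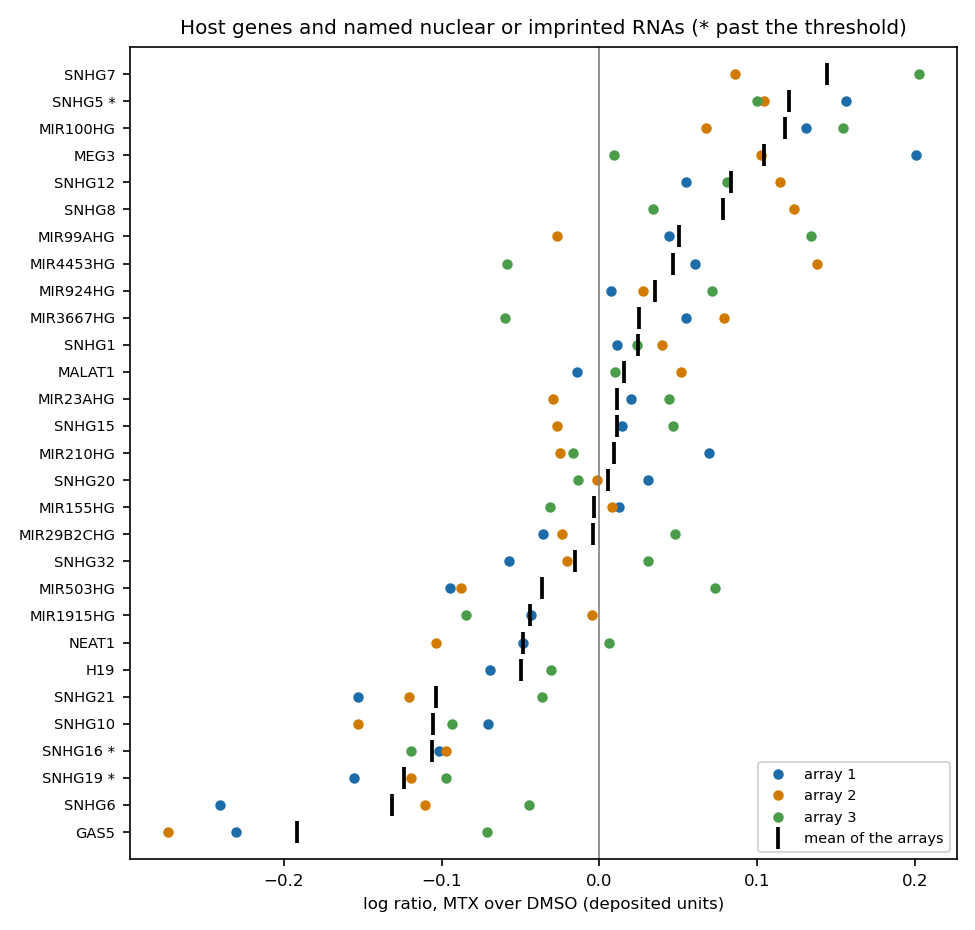
Log ratio of MTX over DMSO in deposited units (x axis) for the host genes and the other named RNAs (y axis), with a point for each array and a line at the mean; an asterisk marks a gene past an adjusted p of 0.05. SNHG5 lies above 0 and SNHG16 and SNHG19 lie below 0 on all 3 arrays, while the 11 miRNA hosts have means between -0.0442 and 0.117.

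miRNA host genes had a median absolute log ratio of 0.0354, against 0.105 for snoRNA hosts, and 0 of 11 passed in limma (1 at an unadjusted p under 0.05). This difference in size was not tested. MIR100HG had the highest mean of the 11. It carries the miRNAs of the miR-100, let-7 and miR-125 group, and MIR99AHG carries a paralogous group on another chromosome. Their mature miRNAs are shown because both hosts carry the same seeds, marked in capitals (bases 2 to 8), from the RefSeq miRNA table (GRCh38.p14).
hsa-miR-100-5p (MIR100HG): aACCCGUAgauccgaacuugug
hsa-miR-99a-5p (MIR99AHG): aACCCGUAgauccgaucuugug
hsa-let-7a-5p (MIR100HG): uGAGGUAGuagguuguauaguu
hsa-let-7c-5p (MIR99AHG): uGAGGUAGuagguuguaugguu
hsa-miR-125b-5p (both hosts): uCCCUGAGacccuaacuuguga

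The miRNAs themselves were not analysed here, so the values concern the host transcripts. MIR100HG had 0.131, 0.0674 and 0.154, above 0 on every array. Its mean was 0.117 ± 0.0450 (SD, n = 3) with an adjusted p of 0.0584 in limma, and of 0.0336 among probes measured on all 3 arrays and 0.0380 with the local median removed. MIR99AHG had 0.0443, -0.0266 and 0.134, of mixed sign, with an adjusted p of 0.382. The pair with shared seeds therefore had the 2 highest means among miRNA hosts, and neither passed over all genes.

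Among the remaining miRNA hosts, MIR210HG, host of the hypoxia-induced miR-210, had 0.0694, -0.0252 and -0.0166. MIR155HG, host of the inflammation-related miR-155, averaged -0.00359. MIR23AHG averaged 0.0113, and -0.0704 among probes measured on all 3 arrays, so its sign depends on the probes entered. MIR1915HG was the lowest at -0.0442, with an adjusted p of 0.286.

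None of NEAT1, MALAT1, MEG3 and H19 was called, and 0 of these 4 had an unadjusted p under 0.05. NEAT1 had -0.0482, -0.104 and 0.00585, a mean of -0.0487 ± 0.0548 (SD, n = 3) with an adjusted p of 0.301. Its nearest measured coding neighbour FRMD8 averaged 0.287 ± 0.0350 (SD, n = 3; adjusted p = 0.0256, limma). H19 had -0.0696 and -0.0304 on 2 arrays.

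MALAT1 had -0.0141, 0.0516 and 0.00976, with values on both sides of 0. Its mean of 0.0158 ± 0.0333 (SD, n = 3) combines 4 probes with means between -0.102 and 0.0958, so probes of this gene disagree in sign. MEG3 had 0.200, 0.102 and 0.00946, with array 3 near 0. Its mean was 0.104 ± 0.0955 (SD, n = 3) with an adjusted p of 0.157, and its 3 probes had means between -0.0335 and 0.194. Among probes measured on all 3 arrays it averaged 0.134 with an adjusted p of 0.0386.

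The antisense class, 130 of the 254 genes, held 21 of the 33 calls. This was 16.2% of the class, against 13.9% of all genes. Of 130 antisense genes, 15 were lower (11.5%) and 6 higher (4.62%), against 5.75% and 8.16% of all genes. Of 91 intergenic genes, 3 were lower (3.30%) and 4 higher (4.40%). Host genes had 2 lower and 1 higher of 25, and intronic genes 2 lower of 4. The median log ratio was -0.00790 with an SD of 0.0135 between array medians for antisense genes, -0.00415 ± 0.00685 for intergenic genes and 0.00921 ± 0.0227 for host genes, which was -0.00359 among probes measured on all 3 arrays. Each of these 3 medians of gene means lay nearer to 0 than the SD between array medians beside it. The antisense medians of arrays 1, 2 and 3 were all below 0, at -0.0150, -0.00552 and -0.0321. Those of the intergenic and host classes had mixed signs. Differences of 1.5-fold or more on base 10 were reached by 21 antisense genes (16.2%), 5 intergenic genes (5.49%) and 9.34% of all genes. Some of the 21 have arrays of opposite sign, such as PLPPR5-AS1 with 0.0729 and -1.03. Values came from 2 arrays for 54 of 130 antisense genes, 36 of 91 intergenic genes and 2253 of all 11741 genes. These counts describe the classes, and no test was made between them.

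With the local median of the surface removed, 14 antisense genes were lower (10.8%) and 3 higher (2.31%), against 7.06% of all genes lower and 9.28% higher. Intergenic genes then had 5 lower and 5 higher. Among probes measured on all 3 arrays, 15 antisense genes were lower and 9 higher of 76, against 12.4% and 16.6% of all genes. Intergenic genes had 6 lower and 4 higher of 55 there, so their direction was not stable. More antisense genes were lower than higher in both. With a running median along probe numbers removed instead, 7 antisense genes were lower (5.38%) and 3 higher (2.31%), against 3.63% and 5.03% of all genes.

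**Figure D2:**
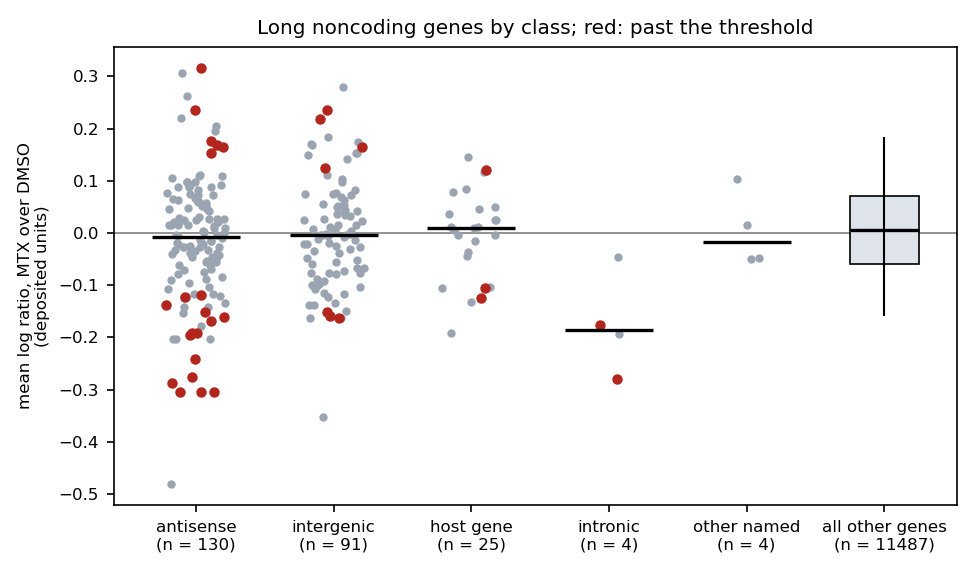
Mean log ratio of MTX over DMSO in deposited units (y axis) for each long noncoding gene by class and for all other genes (x axis), with genes past the threshold in red. Of 130 antisense genes 15 lie below 0 and 6 above 0 in red, while the 91 intergenic genes have 3 and 4.

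Among the antisense genes that fell, MAPT-AS1 and ZBED3-AS1 had the smallest p-values. MAPT-AS1, antisense to the gene of the microtubule protein tau, had -0.305, -0.267 and -0.256. The arrays lay close together. Its mean was -0.276 ± 0.0257 (SD, n = 3; adjusted p = 0.0254, limma), or 1.89-fold lower on base 10 and 1.21-fold on base 2. ZBED3-AS1 had -0.350, -0.251 and -0.311, with a mean of -0.304 ± 0.0498 (SD, n = 3; adjusted p = 0.0257, limma).

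The lowest means had wider spreads. GDF5-AS1 had -0.377, -0.413 and -0.124. Its mean was -0.305 ± 0.158 (SD, n = 3; adjusted p = 0.0498, limma), and with the running median removed it was -0.0607 with an adjusted p of 0.280. SCN1A-AS1, antisense to a sodium channel gene, had -0.466, -0.269 and -0.177. ERICH1-AS1 had -0.437, -0.263 and -0.160. For these 3 genes array 3 was the nearest to 0. SCN1A-AS1 averaged -0.304 (adjusted p = 0.0465, limma) and ERICH1-AS1 -0.287 (adjusted p = 0.0472, limma), the second of which had 0.0551 with the local median removed.

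GABPB1-AS1, opposite the gene of a subunit of the transcription factor GABP, had -0.219, -0.227 and -0.125 and averaged -0.191 ± 0.0567 (SD, n = 3; adjusted p = 0.0346, limma). TPT1-AS1 averaged -0.161 ± 0.0383 over 3 probes (SD, n = 3 arrays; adjusted p = 0.0346, limma), with all 3 probe means below 0, between -0.244 and -0.0671. ST7-AS1 averaged -0.168 ± 0.0580 (SD, n = 3; adjusted p = 0.0411, limma), and with the local median removed it had an adjusted p of 0.0538. PRKCQ-AS1, MIDEAS-AS1 and HLA-F-AS1, named with their values known, were lower with means of -0.151, -0.139 and -0.124. NIFK-AS1, ITGB8-AS1 and BASP1-AS1 rest on 2 arrays each, with means of -0.192, -0.195 and -0.241.

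The antisense genes that rose were fewer. YWHAH-AS1, opposite the gene of a 14-3-3 adaptor protein, had 0.355 and 0.277 on 2 arrays and no value on array 3. Its mean was 0.316 ± 0.0553 (SD, n = 2; adjusted p = 0.0326, limma), or 2.07-fold on base 10 and 1.25-fold on base 2, the highest of all 254 genes. JDP2-AS1 had 0.232 and 0.239 on arrays 2 and 3, with no value on array 1.

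MATN1-AS1 had 0.209, 0.210 and 0.109. RBM26-AS1 had 0.128, 0.231 and 0.149. All values of these genes were above 0. CBR3-AS1, opposite a carbonyl reductase gene, had 0.209, 0.105 and 0.179, with a mean of 0.164 ± 0.0535 (SD, n = 3; adjusted p = 0.0399, limma). DSG2-AS1, opposite the gene of a desmoglein of cell junctions, had 0.130, 0.129 and 0.198. MATN1-AS1, RBM26-AS1 and DSG2-AS1 passed with adjusted p-values of 0.0384, 0.0386 and 0.0370 in limma. With the local median removed these were 0.0501, 0.0592 and 0.0635, and none of the 3 was called.

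Among the intergenic genes that rose, LINC00339 had the smallest spread. It had 0.177, 0.177 and 0.138, a mean of 0.164 ± 0.0226 (SD, n = 3; adjusted p = 0.0295, limma). LINC00691 had 0.249, 0.316 and 0.141, and LINC03129 had 0.294, 0.223 and 0.138, both lowest on array 3. Their means were 0.235 (adjusted p = 0.0370, limma) and 0.218 (adjusted p = 0.0368, limma). LINC02871 had 0.0927, 0.130 and 0.150, with a mean of 0.124 ± 0.0293 (SD, n = 3; adjusted p = 0.0446, limma). This was 0.0649 after removal of the local median, with an adjusted p of 0.217.

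LINC01881 was the steadiest of the intergenic genes that fell, with -0.144, -0.173 and -0.170 and a mean of -0.162 ± 0.0160 (SD, n = 3; adjusted p = 0.0288, limma). LINC02450 had -0.145, -0.116 and -0.214, and LINC01296, named with its values known, had -0.140, -0.211 and -0.104. Both were below 0 on every array. For 49 of 88 intergenic genes with a RefSeq position, the nearest coding gene was measured. The signs matched in 26 of the 49. Of these 49 neighbours 6 were called, against 13.9% of all genes. Some of the neighbours overlap the gene of the LINC symbol in the annotation, as the called PEAK1 does with LINC00597. LINC02871 was the single gene called together with its nearest coding gene, JAG1, a Notch ligand gene 352545 bases away. JAG1 averaged 0.321 ± 0.0530 (SD, n = 3; adjusted p = 0.0257, limma).

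The 4 intronic genes all had means below 0. AGPAT4-IT1 had -0.352 and -0.209 and ATP2B2-IT2 had -0.161 and -0.190, each on 2 arrays. They passed with adjusted p-values of 0.0494 and 0.0497, and with the local median removed they had 0.0746 and 0.0693. GABPB1-IT1 had -0.304, -0.257 and -0.0213, low on arrays 1 and 2, and was not called with an adjusted p of 0.103. GABPB1-AS1 and GABPB1-IT1 are named for the same locus, whose coding gene GABPB1 averaged -0.0534 with an adjusted p of 0.186.

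**Figure D3:**
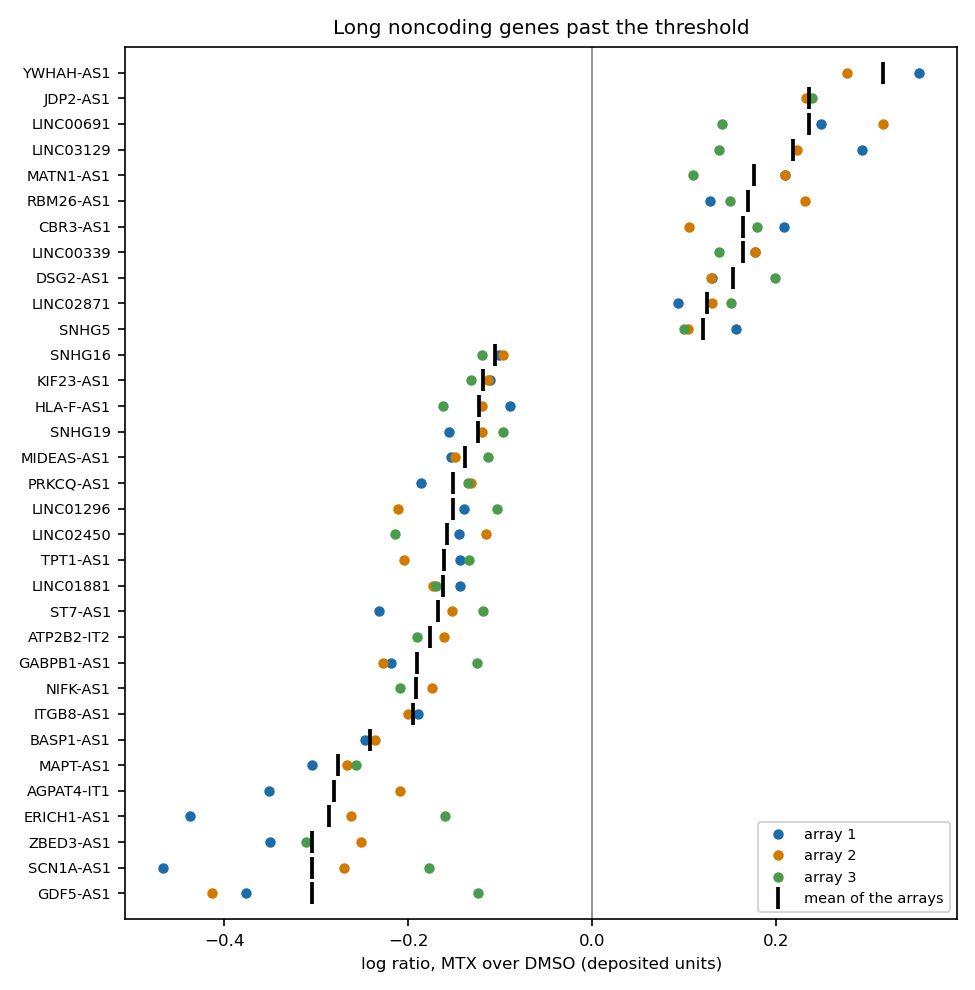
Log ratio of MTX over DMSO in deposited units (x axis) for the 33 long noncoding genes past an adjusted p of 0.05 (y axis), with a point for each array and a line at the mean. The 22 lower genes lie below 0 and the 11 higher genes above 0 on every array that measured them, and 7 genes have points on 2 arrays. The threshold itself favours genes whose arrays share a sign.

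Among the 5 highest and 5 lowest means that were not called, 6 had arrays of different sign. PLPPR5-AS1 had 0.0729 and -1.03 on arrays 1 and 3. SCAMP1-AS1 had 0.799 and -0.188 on arrays 2 and 3, and WARS2-AS1 had -0.311 and 0.753 on the same 2 arrays. The other 3 of mixed sign were LINC01279, TPRG1-AS1 and KIF9-AS1. LINC03103 had 0.190 and 0.369, of one sign, with an adjusted p of 0.0610. HERPUD2-AS1 had -0.103, -0.122 and -0.387, ZNF205-AS1 had -0.0627 and -0.342, and LCMT1-AS2 had 0.354 and 0.0545. These were also of one sign, with values far apart, and ZNF205-AS1 and LCMT1-AS2 were measured on 2 arrays each. With the local median removed HERPUD2-AS1 had -0.119, -0.125 and -0.192. It was then called, with an adjusted p of 0.0326 in limma.

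Antisense genes were then set beside the gene they are named for, a coding gene in most pairs and the host gene GAS5 for GAS5-AS1. The partner was measured for 91 of the 130. Signs matched in 47 pairs and were opposite in 44, so antisense genes moved with their partners about as often as against them. In 16 pairs the antisense gene was called and in 16 the partner, 10 of these partners higher and 6 lower, and both were called in 5. The called partners were 17.6% of the 91, against 13.9% of all genes. In 4 of these 5 the antisense gene and its partner moved in opposite directions. Whether the probes distinguish the strands was not tested. The pair differences were not tested either.

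JDP2-AS1 and JDP2 were a pair of opposite direction. JDP2 is a repressor of AP-1 transcription factors. Their annotated starts lie 69 bases apart on opposite strands, and the stretch that holds both is shown for that reason, on the plus strand at chr14:75427625-75427754 (GRCh38.p14, from the RefSeq promoter table). The first capital is the start of JDP2-AS1, which runs to the left on the minus strand, and the second is the start of JDP2, which runs to the right.
JDP2-AS1 and JDP2: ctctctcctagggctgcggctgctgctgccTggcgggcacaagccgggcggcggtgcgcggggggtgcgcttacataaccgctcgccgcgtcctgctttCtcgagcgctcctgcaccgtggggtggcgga

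JDP2-AS1 averaged 0.235 ± 0.00515 (SD, n = 2; adjusted p = 0.0347, limma). JDP2 had -0.252, -0.149 and -0.136, with a mean of -0.179 ± 0.0636 (SD, n = 3; adjusted p = 0.0402, limma). The arrays of the 2 genes did not overlap, which largely follows from choosing a pair called with opposite signs. With the running median removed JDP2 had an adjusted p of 0.0506.

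The other opposite pairs had a lower antisense gene and a higher partner. KIF23-AS1 had -0.111, -0.113 and -0.132, while KIF23, a mitotic kinesin, had 0.172, 0.146 and 0.214 (adjusted p = 0.0301, limma). BASP1-AS1 averaged -0.241 (n = 2) and BASP1, a membrane-associated signal protein, averaged 0.130 ± 0.0421 (SD, n = 3; adjusted p = 0.0484, limma). ITGB8-AS1 had -0.189 and -0.200, while ITGB8, an integrin subunit, had 0.207, 0.140 and 0.0959 (adjusted p = 0.0480, limma). In these 3 pairs every array of the antisense gene was below 0 and every array of the partner above it. This largely follows from choosing pairs called with opposite signs and is no separate result. With the local median removed, KIF23 and BASP1 had adjusted p-values of 0.0565 and 0.0561 and BASP1-AS1 had 0.0511, so these 2 pairs were no longer called on both sides.

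YWHAH-AS1 and YWHAH rose together. YWHAH had 0.149, 0.247 and 0.250, with a mean of 0.215 ± 0.0573 (SD, n = 3; adjusted p = 0.0302, limma), and the annotated starts lie 827 bases apart. It was the single called pair of one sign, and with the local median removed HLA-F-AS1 and HLA-F, both lower, became the second. The pairs called on both sides varied with the processing: with array weights 6 had one sign and 5 opposite signs, and with the running median removed YWHAH-AS1 and YWHAH were the single pair.

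Most called antisense genes had a partner that was not called. TPT1 averaged 0.0448 ± 0.0270 (SD, n = 3) beside the lower TPT1-AS1, whose start lies 162 bases away. RBM26 averaged 0.00947 beside the higher RBM26-AS1, 54 bases away, and MIDEAS -0.0256 beside the lower MIDEAS-AS1, 152 bases away. In these 3 pairs the starts were close and the antisense gene alone was called. ZBED3 had 0.148, -0.197 and -0.186, with array 1 opposite to the others. CBR3 averaged 0.132 on 2 arrays with an adjusted p of 0.0830, of the same sign as CBR3-AS1.

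In 11 pairs the partner alone was called. IL6-AS1 averaged -0.00337 while IL6, the cytokine, averaged 0.245 ± 0.0341 (SD, n = 3; adjusted p = 0.0257, limma). INTS6-AS1 averaged 0.0573 and INTS6, a subunit of the Integrator complex, 0.181. HMMR-AS1 averaged -0.00373 and HMMR, a mitotic hyaluronan receptor, 0.143. HMMR averaged 0.0727 with an adjusted p of 0.198 after removal of the local median and was no longer called, and TRIM52, another of the 11, then had an adjusted p of 0.0785. In 35 pairs the starts lay within 1000 bases on opposite strands, and signs matched in 17 and were opposite in 18. In the other 31 pairs with both starts known, 21 matched and 10 were opposite. Over the 91 pairs the correlation of mean values was 0.0730, given as a description since pairs share arrays and spot areas.

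**Figure D4:**
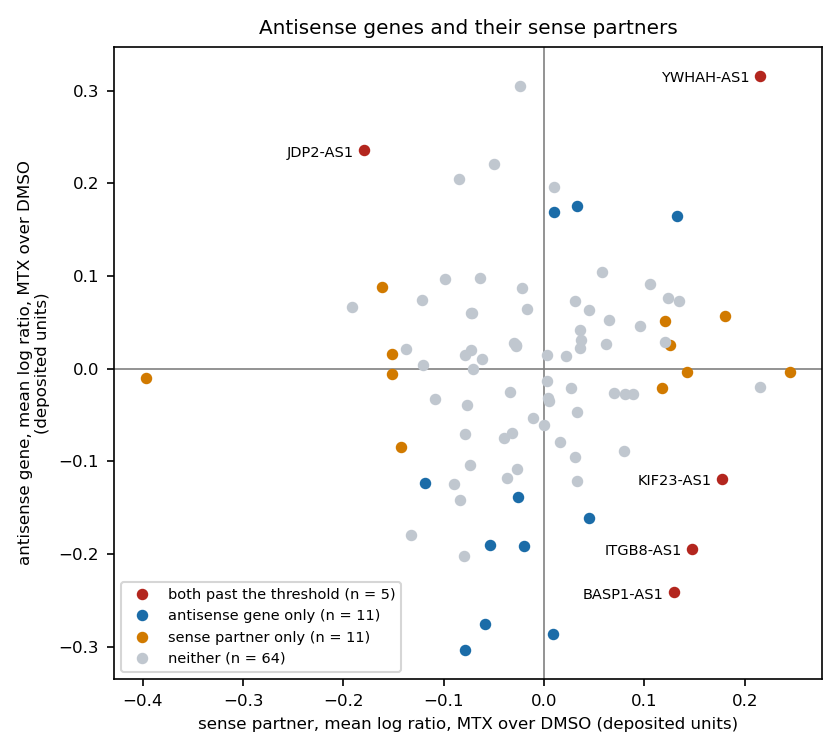
Mean log ratio of MTX over DMSO in deposited units for 91 antisense genes (y axis) against their sense partners (x axis), coloured by which of the pair passed the threshold. Of the 5 pairs past it on both sides, YWHAH-AS1 lies in the upper right, JDP2-AS1 in the upper left and the other 3 in the lower right.

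The start regions of the classes differed in base composition. Of 254 genes, 189 had an entry in the RefSeq promoter table (250 bases before to 50 after the start). A CpG ratio, observed over expected from base content, of at least 0.6 was found in 70 of 99 antisense genes (70.7%) and 10 of 12 snoRNA hosts (83.3%). It was found in 27 of 64 intergenic genes (42.2%). The same share was 65.8% for protein-coding genes and 25.7% for all lncRNA genes of the table. Antisense and snoRNA host genes on the array thus had starts composed much like those of coding genes, and the intergenic genes lay between coding and other lncRNA genes.

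Comparison lists, most of them of genes that act on these RNAs, are read against the 13.9% of all genes called, 5.75% lower. Of 9 snoRNP proteins, which bind snoRNAs, all had means below 0 with a median of -0.0908, and 1 was called: FBL, the methyltransferase fibrillarin, with -0.124, -0.159 and -0.127 (adjusted p = 0.0354, limma). After removal of the local median 5 of the 9 were lower, FBL, NOP56, NOP58, NHP2 and DKC1, against 7.06% of all genes lower in that fit. Of 14 measured genes listed for mRNAs that begin with a pyrimidine tract, 4 fell (28.6%) and 0 rose, and the median was -0.0515. Most of the 14 are translation factors, while HNRNPA1, NPM1 and NAP1L1 are not. EIF3E averaged -0.194 ± 0.0351 (SD, n = 3; adjusted p = 0.0276, limma).

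Of 12 measured genes of the nuclear exosome, which degrades nuclear RNA, 2 were lower (16.7%): EXOSC8 with a mean of -0.190 and EXOSC9 with -0.154. DIS3, of the same list, averaged 0.136 with an adjusted p of 0.0516 in limma. With the local median removed it was called higher, with 0.0444, and EXOSC8 and EXOSC9 stayed lower. Of 10 paraspeckle and nuclear RNA-binding proteins, SRSF2, a splicing factor, was lower with a mean of -0.121 and 0 were higher. SRSF2 had an adjusted p of 0.0695 after removal of the local median, and SRSF1, another splicing factor, was called in its place with 0.0312. Of 8 measured genes of nonsense-mediated decay, 0 were called, and RBM8A came closest with an average of 0.0903 and an adjusted p of 0.0638. UPF1, the helicase of this pathway, was called higher, with a mean of 0.109, when the local median was removed. Of 9 measured long noncoding genes outside the symbol rule, CYTOR was lower, with -0.263, -0.234 and -0.122 (adjusted p = 0.0378, limma). All genes had a median of 0.00601. The medians of the snoRNP and pyrimidine-tract lists were lower than it. So were those of the paraspeckle (-0.0500), nuclear exosome (-0.0182) and other long noncoding (-0.0141) lists. The median of the nonsense-mediated decay list was higher, at 0.0624.

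Long noncoding probes were measured on fewer arrays than others. Of 509 long noncoding probes, 295 (58.0%) had values on at least 2 arrays and 186 (36.5%) on all 3. Other probes with a single symbol reached 75.5% and 58.5%. Of 443 long noncoding genes with any value, 254 entered the fit.

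**Figure D5:**
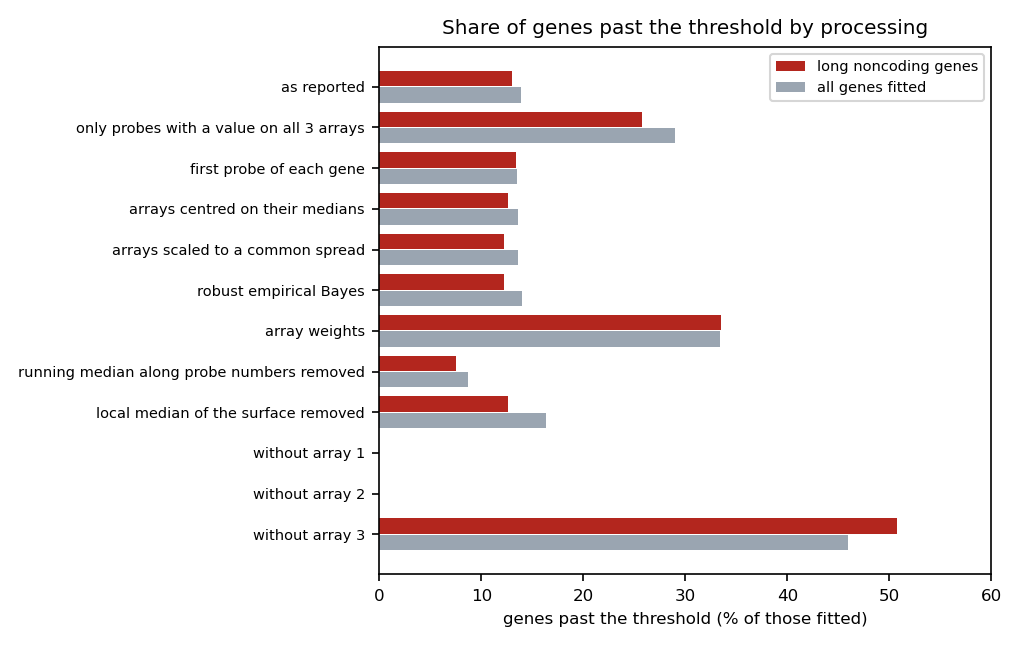
Share of genes past an adjusted p of 0.05 in percent (x axis) under each way of processing (y axis), for long noncoding genes and for all genes fitted. The 2 shares are 13.0% and 13.9% as reported, and both are 0 without array 1 or array 2.

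Of the 33 calls, 15 were kept under every processing tried that leaves out no array and could test them. They include MAPT-AS1, GABPB1-AS1, SCN1A-AS1, TPT1-AS1, SNHG19, LINC00339, LINC00691, JDP2-AS1 and YWHAH-AS1.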

How the data were processed

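RNA of MTX and DMSO cells was labelled with a FairPlay III kit, scanned with a GenePix scanner, corrected for local median background and normalised by LOWESS, per the series' design text and the labels. The authors deposited a normalised log ratio for every probe and array without stating its base. The deposited values were treated as log10 for folds, a choice that leaves p-values as they are. Arrays are ratios with no depth, and their number limits the precision.

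The table has 31615 probes, of which 22472 carry 1 symbol in the platform annotation, 80 several and 9063 none. Probes with 1 symbol and values on at least 2 arrays (16867) were averaged per gene and array. Members rest on 295 probes: 228 genes have 1 probe and 26 several, of which 12 have probes of different sign. For 13 genes the arrays rest on different probes. Gene means were compared with 0 by limma 3.58.1 (lmFit, eBayes; R 4.3.3), two-sided, Benjamini-Hochberg adjusted over all 11741 genes. The fit was tested on simulated data. Neighbouring spots were found by a period of 215 probe numbers. Errors are SDs over arrays.

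Members, lists and classes were chosen with earlier results of these data known. Named genes are the called members, up to 15 in each direction, all host genes, NEAT1, MALAT1, MEG3 and H19, the 5 highest and 5 lowest members not called, sense partners, and the 2 list members with the smallest p. Other genes were named after their values were seen. RefSeq tables gave names, neighbours and sequences. Alternatives were probes on all 3 arrays, the first probe of a gene, centring, scaling, robust moderation, array weights, removal of a running median, removal of a local median (chosen after seeing the data) and leaving out each array. Scanner values were not used here.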

Additional observations from a re-analysis of the deposited data

How the results depend on the processing

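No paired analysis was possible because the 3 ratios form a single group. Of the 101 genes named, 18 changed the sign of their mean under some alternative, 17 of them without an array left out. None of these was called as reported or under that alternative. Centring, scaling and robust moderation changed no count of calls by over 1.5 times in total, by direction or by class. With the local median removed this held for totals and classes, but antisense genes called higher numbered 3 against 6, intergenic genes called lower 5 against 3, and opposite pairs called on both sides 2 against 4. Among probes measured on all 3 arrays, 6 host genes and 25 genes of the lists were called, against 3 and 16 as reported, 59.6% of pairs had one sign, against 51.6%, and the intergenic median was -0.0138. With the first probe of each gene 1 host gene was called. Array weights gave 85 long noncoding genes (33.5%, against 33.4% of all genes), 35 higher and 50 lower. Of these 44 were antisense, 28 intergenic and 9 host genes. The same fit called 32 list genes and had an intergenic median of 0.00274. With a running median removed, 19 long noncoding genes were called (7.48%, against 8.66% of all genes), 6 higher and 13 lower, 10 of them antisense. Of the 33 calls 15 were then kept. Leaving out each array gave 0 to 96 calls, 0 to 42 higher and 0 to 54 lower, with 0 to 30 of the 33 calls kept, 0 to 52 antisense, 0 to 30 intergenic, 0 to 11 host and 0 to 34 list genes. Pairs of one sign then ranged between 47.0% and 65.5%, and the intergenic median between -0.0228 and 0.00456. The cause of these changes was not tested.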

Other observations

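A further 189 long noncoding genes, with 195 probes, had no probe measured on 2 arrays and entered no comparison. Of these probes 24 had a value on array 1, 80 on array 2 and 91 on array 3. Their log ratios lay between -0.375, for LINC00844, and 0.890, for LINC02400, with a median of 0.000345. DLGAP1-AS6 had 0.732. OTUD6B-AS1 was covered by 10 probes, whose means lay between 0.0279 and 0.132.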
